A study of Mus musculus with 24 samples.

Results

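Focal sites of NELF and SPT5 are places where 2 subunits of the negative elongation factor NELF and the SPT5 subunit of DSIF all had regions of high ChIP coverage, short ones with NELFE and SPT5. They were found by chromatin immunoprecipitation and sequencing (ChIP-seq) in a line of mouse embryonic stem cells called E14, kept in serum with LIF. Every sample carried the genotype labelled Nelfb deg, a degron allele through which NELFB, tagged with the HA epitope, can be removed by the compound dTAG-13, and no sample without this allele was used. The 6 libraries used were all labelled Control: 2 precipitated through the HA tag (NELFB:HA 1 and 2), 2 with an antibody to NELFE, another NELF subunit (NELFE 1 and 2), and 2 with an antibody to SPT5 (SPT5 1 and 2). The label's protocol names DMSO and dTAG-13 as the additions to the medium. Of the series' 24 samples the other 18 were not analysed here, among them 7 treated with 500 nM dTAG-13 for 30 min. Whether the line is 1 clone, and whether libraries of an antibody came from separate cultures, is not given in the sources used here, so the spread between them may be technical.

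The members were chosen by measured values. In each of the 6 lists of enriched regions the 10000 regions of highest pileup, the depth of ChIP fragments over the region, were taken from the 19 autosomes, without chromosome 14 beyond 95 Mb. A focal site is a top region of NELFE 1 that overlapped a top region of all 5 other libraries by at least 1 bp, was shorter than 3000 bp, and overlapped no top SPT5 region of 3000 bp or more. Of the 10000 top NELFE 1 regions, 7145 (71.5%) were shared by all libraries and 2646 (26.5%) were focal. The 6 lists held 1811308 regions in all. The remaining shared sites were 3041 with a short NELFE 1 region but an SPT5 region of 3000 bp or more, called extended SPT5 sites below, and 1458 with a NELFE 1 region of 3000 bp or more, called broad NELFE sites. The other 2855 top NELFE 1 regions were unshared. With SPT5 1 left out of the rule, the number of focal sites was 4191.

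NELF and DSIF bind RNA polymerase II shortly after it has begun a transcript and hold it in a paused state near the promoter. Release requires the kinase P-TEFb, after which NELF leaves and DSIF, with SPT5 modified, travels on with the polymerase through the gene body. ChIP of NELF is therefore known for narrow signals beside transcription starts, and ChIP of SPT5 for signals that may run on into the gene.

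The strongest focal sites show what such a place looks like. The 8 sequences printed here are those of the strongest focal sites that held exactly 1 annotated start, ranked by fold enrichment over input averaged as a percentile over the 6 libraries. Each runs from 120 bases before the start through the first 30 transcribed bases, 5′ to 3′ on the strand of the gene, from RefSeq on GRCm38.p6, the reference release of mm10. Capitals mark matches on either strand to 4 motifs. The TATA box was searched as TATAAA. The CCAAT box is named by its letters. The GC box, bound by factors of the SP family, is GGGCGG. The site of the ETS family of factors is CCGGAAG. A match is a run of letters and not evidence of binding.
Hif1an, chr19:44562734-44562883, + strand: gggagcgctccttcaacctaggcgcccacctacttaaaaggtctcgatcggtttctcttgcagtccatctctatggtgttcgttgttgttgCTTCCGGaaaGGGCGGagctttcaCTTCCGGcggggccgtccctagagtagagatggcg
Mbtps1, chr8:119558732-119558881, - strand: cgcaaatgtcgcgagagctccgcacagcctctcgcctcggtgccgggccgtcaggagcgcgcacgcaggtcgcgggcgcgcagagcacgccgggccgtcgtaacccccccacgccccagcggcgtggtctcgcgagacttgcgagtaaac
Arid5a, chr1:36307613-36307762, + strand: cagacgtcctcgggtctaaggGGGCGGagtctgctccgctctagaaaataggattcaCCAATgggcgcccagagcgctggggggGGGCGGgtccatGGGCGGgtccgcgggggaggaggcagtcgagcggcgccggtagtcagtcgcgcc
H4c2, chr13:23756817-23756966, + strand: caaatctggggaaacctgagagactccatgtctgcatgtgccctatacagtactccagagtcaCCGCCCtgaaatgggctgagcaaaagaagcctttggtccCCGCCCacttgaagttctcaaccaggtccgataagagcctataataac
Tubgcp5, chr7:55794005-55794154, + strand: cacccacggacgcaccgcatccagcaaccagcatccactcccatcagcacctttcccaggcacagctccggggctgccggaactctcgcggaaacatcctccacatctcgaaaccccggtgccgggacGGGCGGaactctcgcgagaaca
Nubp1, chr16:10411818-10411967, + strand: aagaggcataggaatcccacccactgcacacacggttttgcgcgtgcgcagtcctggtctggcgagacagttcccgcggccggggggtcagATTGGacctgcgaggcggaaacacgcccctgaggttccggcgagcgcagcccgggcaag
Taf13, chr3:108571579-108571728, + strand: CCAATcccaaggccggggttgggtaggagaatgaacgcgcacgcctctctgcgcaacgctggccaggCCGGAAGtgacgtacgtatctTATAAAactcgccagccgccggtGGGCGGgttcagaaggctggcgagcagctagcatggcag
Rfk, chr19:17393923-17394072, + strand: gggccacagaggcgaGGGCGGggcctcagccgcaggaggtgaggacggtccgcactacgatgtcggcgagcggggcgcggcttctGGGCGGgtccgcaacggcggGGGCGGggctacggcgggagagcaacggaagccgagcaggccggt

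The libraries differed in depth, tag length and input. Filtered tags numbered 41312333 and 29656999 with NELFB:HA, 40260648 and 28944909 with NELFE and 27324697 and 62312558 with SPT5. The SPT5 libraries had tags of 100 and 101 bp and shared 1 input, and the other 4 had tags of 50 bp with an input each. For every comparison with SPT5, antibody cannot be told apart from tag length and input. The lowest pileup among the top 10000 regions was 16.98 and 12.73 in the lists of NELFB:HA, 17.24 and 16.04 in those of NELFE and 11.48 and 19.18 in those of SPT5. Of the stem cell markers Pou5f1, Sox2, Nanog, Zfp42 and Esrrb, the starts of Pou5f1, Sox2 and Zfp42 lay at broad NELFE sites, none lay at a focal site, and Nanog and Esrrb had no top region of NELFE 1. Of the markers of other cell types with an entry in the promoter table, Foxa2 lay at an unshared region, and T, Eomes, Cdx2, Pax6 and Afp had none.

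Hif1an, which encodes an asparagine hydroxylase that inhibits hypoxia-inducible factor, lay at the strongest focal site (chr19:44562524-44563511). Its fold enrichment over input, a ratio computed by the authors, was 11.4 and 13.3 with NELFB:HA, 21.5 and 25.4 with NELFE and 7.59 and 7.45 with SPT5. The NELFE regions there were 988 and 848 bp long and the SPT5 regions 891 and 584 bp, while the second NELFB:HA region reached 3730 bp. Mbtps1, which encodes the protease that first cleaves the SREBP factors of lipid metabolism, had folds of 10.4 and 9.03 with NELFB:HA, 15.2 and 13.9 with NELFE and 6.66 and 6.94 with SPT5. At Tubgcp5, a component of the gamma-tubulin ring complex that nucleates microtubules, folds were 10.3 and 9.39, 20.6 and 14.2, and 6.93 and 5.61 in that order. At these 3 sites NELFE had the highest fold in both libraries and SPT5 the lowest.

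The site at Arid5a, which encodes an RNA-binding protein of the ARID family, had its highest fold in another library. It was 14.8 in NELFB:HA 1, above the 12.5 and 12.9 of the NELFE libraries, and its SPT5 folds of 10.1 and 8.50 were the highest SPT5 folds of the 8 sites for the first library and the second highest for the second. The 4 GC and CCAAT boxes of its printed sequence all lie before the start. H4c2, a replication-dependent histone H4 gene, had folds of 13.1 and 11.1, 14.3 and 11.7, and 9.62 and 9.10. The H4c2 site was focal by its NELFE 1 region of 2071 bp, but the NELFE 2 region over it was 9432 bp and the NELFB:HA 1 region 8752 bp, so it was short only in the libraries whose length the rule used. Histone genes have near-identical copies, and how the authors treated tags that map to several of them is not given in the sources used here, which makes this site uncertain.

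Nubp1, which takes part in assembling iron-sulfur clusters in the cytosol, had folds of 10.3 and 8.26, 13.7 and 12.7, and 7.60 and 6.53. The remaining sites of the 8 strongest by rank were those at Taf4, which shares its promoter region with the RNA gene 4921531C22Rik, and at an end of Drg1, a GTP-binding protein gene whose strand the annotation used does not give. Taf4, a scaffold subunit of TFIID, had folds of 12.2 and 13.9, 13.3 and 16.3, and 6.64 and 7.40. At Drg1 they were 10.5 and 13.4, 13.3 and 19.9, and 7.39 and 5.65. Taf13, another TFIID subunit, and Rfk, the kinase that turns riboflavin into FMN, came next among the sites with 1 start. Taf13 is the 1 gene of the 8 printed whose sequence holds a TATA box.

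**Figure D1:**
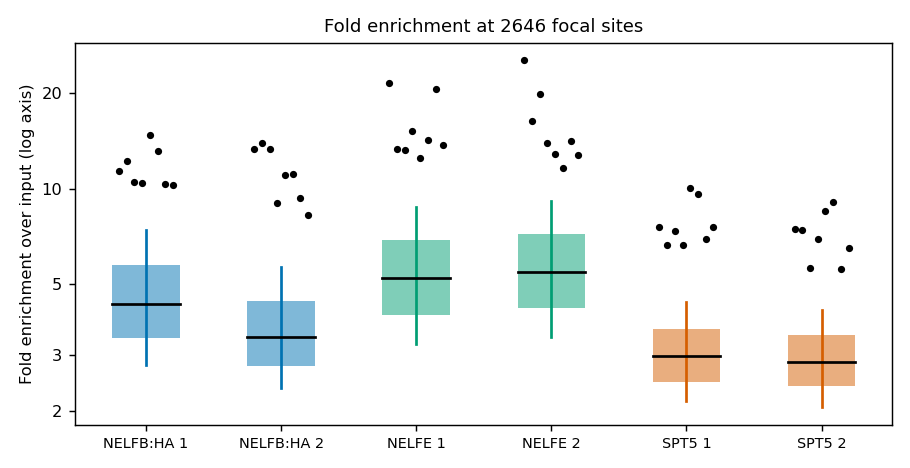
Fold enrichment over input (log axis) in each of the 6 libraries at the 2646 focal sites. The black line is the median, the box spans the 25th to 75th percentile, the thin line the 10th to 90th percentile, and the dots are the 8 strongest sites. Medians were highest in the NELFE libraries (5.24 and 5.49) and lowest in the SPT5 libraries (2.97 and 2.85).

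Over all 2646 focal sites the median fold was 4.34 and 3.41 with NELFB:HA, 5.24 and 5.49 with NELFE and 2.97 and 2.85 with SPT5, as the plot of fold enrichment by library shows. Pileup and length chose the sites, and fold comes from the same regions, so these values are a description without a test. At extended SPT5 sites the medians were 5.36 and 4.11, 6.49 and 6.55, and 3.03 and 2.99, so in each library the focal median was the lower. All 6 regions had a deposited q-value of 0.01 or less at 1911 focal sites (72.2%). In SPT5 1, 584 focal sites had a weaker q-value than that, and in SPT5 2 there were 312, against 39 and 222 with NELFB:HA and 20 and 15 with NELFE.

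Some focal sites were deep without being enriched. Fold was below 2 in at least 1 library at 309 focal sites and in all 6 at 7. The lowest value belonged to a site inside Sfi1, a gene for a centrosomal protein, at chr11:3193010-3193777. Its pileup lay between 191.67 and 288.58 in the 6 libraries, while its fold lay between 1.17 and 1.86. The shortest focal site, 254 bp between genes at chr11:54140215-54140468, had pileups of 81.78 to 148.63 and folds of 1.19 to 1.53. Input was thus deep at these sites as well, and the rule, which ranks by pileup, kept them.

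Median region lengths at focal sites were 1820 and 2090 bp with NELFB:HA, 1477 and 1728.5 bp with NELFE and 1700 and 1388 bp with SPT5. The limit of 3000 bp was applied to NELFE 1 and to SPT5, and regions of 3000 bp or more occurred at 501 sites (18.9%) in NELFB:HA 1, 713 (26.9%) in NELFB:HA 2 and 371 (14.0%) in NELFE 2. All 6 regions were below the limit at 1394 sites (52.7%). At extended SPT5 sites, where the rule puts long SPT5 regions, the medians were 4317 and 3421 bp with SPT5 and 1800 and 2223 bp with NELFE.

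The limit cut through a continuous range of lengths. Just inside it were the sites at Dpy30, a subunit of histone methyltransferase complexes (longest SPT5 region 2999 bp), at Armc6 and Sugp2 (2998 bp), at 4930579K19Rik and Copb2, a coat protein of Golgi vesicles (2998 bp), and at gene ends of Mip and Timeless (2997 bp). Just outside were Rab4b, a small GTPase of endosomes (3000 bp), Slc28a1 (3001 bp), Acer3 (3002 bp), and Brd3, a bromodomain protein whose NELFE 1 region measured 3002 bp. The longest NELFE 1 region of a focal site, 2995 bp, lay at Rcor1, a corepressor subunit, where the SPT5 regions were only 1056 and 1008 bp. Dpy30 had NELFE folds of 8.46 and 9.49 and SPT5 folds of 3.69 and 3.69, and Rab4b had 3.25 and 2.96 and 2.13 and 2.32.

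A region ends where enrichment falls below the weak cutoff of the caller, beyond any gap that the caller joins, and a short region can have a neighbour. No region of any full list began or ended within 500 bp of a focal site's own region in that list, and the same held at extended SPT5 sites. How far the joining of nearby regions by the caller sets this was not tested, so it is not read as a trait of focal sites. Within 1000 bp another region of the same list lay at 569 focal sites (21.5%) in SPT5 1 and 267 (10.1%) in SPT5 2, against 208 and 253 in the NELFB:HA lists and 123 and 137 in the NELFE lists. Among the top 10000 regions alone, such a neighbour was found at 26 and 14 focal sites with SPT5. In the full SPT5 lists it was found at 29.8% and 19.8% of extended SPT5 sites. Tags were extended to 206 bp for SPT5 and 227 bp for the other libraries, and how far that sets these counts was not tested.

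Focal sites were mostly at gene starts. Off chromosome 18, for which the promoter table used has no entries, 2017 of 2578 focal sites (78.2%, 95% Wilson interval 76.6 to 79.8) had an annotated start within 500 bp of the NELFE 1 region. The share was 70.6% over all top NELFE 1 regions, 79.8% at extended SPT5 sites and 51.6% at unshared regions. These intervals cover counting error only, and regions share their libraries, so no test was made. Of the same 2578 focal sites, 381 (14.8%) had no start in the promoter table but another gene end in the fuller annotation, 89 (3.45%) lay inside a gene and 91 (3.53%) between genes. Chromosome 18 held the remaining 68 focal sites.

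Folds were lower at the sites away from gene ends. At the 95 sites inside genes, chromosome 18 included, the median fold was 3.58 and 2.90 with NELFB:HA, 4.09 and 4.70 with NELFE and 2.60 and 2.59 with SPT5. At the 1452 sites with exactly 1 annotated start it was 4.35 and 3.44, 5.28 and 5.54, and 2.98 and 2.85. SPT5 fold was below 2 at 17 (17.9%) and 20 (21.1%) of the sites inside genes and at 78 (5.37%) and 118 (8.13%) of the sites with 1 start. The same 6 libraries chose the sites, so this too is a description.

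Starts on both strands were counted whether or not they diverge. Off chromosome 18 they were found at 392 of 2578 focal sites (15.2%, interval 13.9 to 16.6), at 578 extended SPT5 sites (19.6%, 18.2 to 21.1) and at 15.0% of all top NELFE 1 regions. The median NELFE 1 region was 1477 bp long at focal sites and 1800 bp at extended SPT5 sites. How far length sets these shares was not tested. Genes of small RNAs were counted in the fuller annotation, which has chromosome 18. A tRNA gene end lay in 12 focal sites (0.454%) against 1.66% of all top NELFE 1 regions and 131 of the 2855 unshared ones (4.59%). The share was also low at extended SPT5 sites (13, 0.427%) and broad NELFE sites (10, 0.686%), so it is not particular to focal sites. An snRNA gene end lay in 13 focal sites (0.491%), close to the 0.42% of all top regions, and a microRNA gene end in 17 (0.642%), against 0.8% of all. A snoRNA gene end lay in 1 focal site (0.0378%), against 0.51% of all top regions, with 26 extended SPT5 sites and 24 broad NELFE sites.

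The promoters at focal sites were rich in CpG. This was read from the 1452 sites with 1 start, over 250 bases before to 50 after it, calling a promoter CpG-rich at a GC content of at least 55% and an observed to expected CpG ratio of at least 0.6. By this measure 73.6% (interval 71.2 to 75.8) of focal promoters were CpG-rich, against 30.9% of all 31223 promoters of the RefSeq table, 72.1% at all top NELFE 1 regions with 1 start and 75.4% (73.2 to 77.5) at extended SPT5 sites. Median GC content was 62% at focal sites, 62.3% at all top NELFE 1 regions with 1 start and 53% over the table. Fold at focal sites differed little between the 2 kinds of promoter: the median for NELFE 1 was 5.34 at the 1068 CpG-rich ones and 5.14 at the other 384, and for SPT5 1 it was 2.98 and 3.02.

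Of the 7 motifs searched on both strands, the GC box GGGCGG was the most common. It stood in 71.2% of focal promoters, against 36% of all promoters and 71.9% at extended SPT5 sites. The ETS site CCGGAAG stood in 23.6% of focal promoters, 9.01% of all and 24.6% at extended SPT5 sites, and the CCAAT box in 39.8%, 37.3% and 39.0% in that order. At all top NELFE 1 regions with 1 start the shares were 71.5% for the GC box, 21.1% for the ETS site and 39.3% for the CCAAT box. The TATA box TATAAA was scarcer than over the table, in 5.85% of focal promoters and 6.66% at extended sites against 13.6%. Its share at all such top regions was 6.54%. In the 20 to 40 bases before the start, where a working TATA box lies, it occurred at 10 focal promoters (0.689%). Shares there were 1.03% at extended sites, 0.949% at all such top regions and 1.93% of all promoters. Taf13, printed above, is an example of such a focal promoter.

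The rarer motifs followed the GC box in direction. The cyclic AMP response palindrome TGACGTCA stood in 4.27% of focal promoters and 4.46% at extended sites against 1.83% of all, and the YY1 site AAGATGGCG in 4.06% and 4.40% against 1.39%. At all top NELFE 1 regions with 1 start these palindrome and YY1 shares were 4.05% and 3.80%. The NRF1 palindrome stood in 3.86% (interval 2.98 to 4.98) of focal promoters against 0.967% of all. For this motif the value was 2.33% (1.69 to 3.20) at extended SPT5 sites and 1.83% (1.05 to 3.17) at broad NELFE sites. NRF1 is an activator of many genes of mitochondrial function. These shares are counts of letters and not of bound factor.

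**Figure D2:**
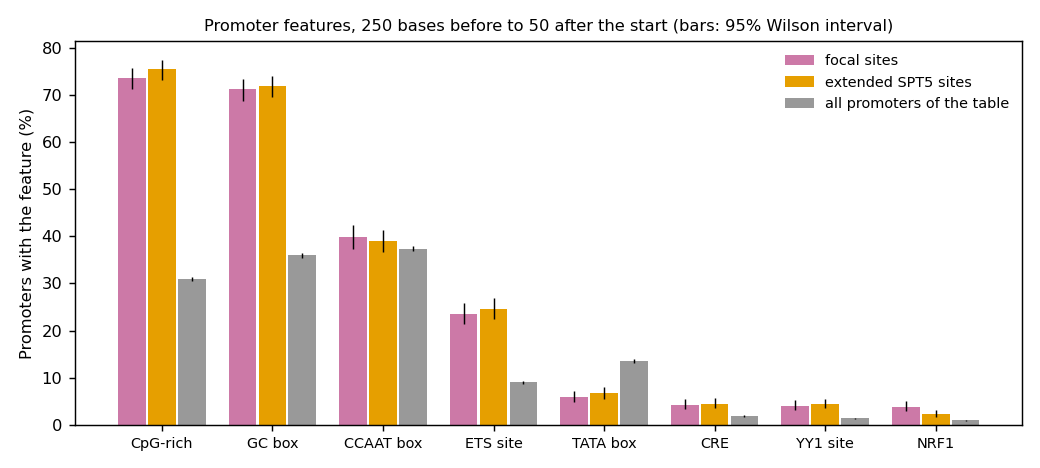
Share of promoters (%) with each feature, from 250 bases before to 50 after the start, at focal sites (n = 1452), at extended SPT5 sites (n = 1547) and over all 31223 promoters of the table, with 95% Wilson intervals. Focal and extended sites stand close together for the GC box (71.2% and 71.9%), and above all promoters (36%).

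The genes starting at the sites with 1 start were also compared by length. The median of the 1448 genes was 25.7 kb, against 21.8 kb at extended SPT5 sites, 23.8 kb at all top NELFE 1 regions with 1 start and 13.1 kb over the promoter table. Genes shorter than 3 kb made up 4.42% at focal sites, 7.63% at extended SPT5 sites and 16.6% of the table. There were 67 long noncoding RNA genes among the 1448 (4.63%). Their share was 3.95% at extended SPT5 sites, 5.93% at all top NELFE 1 regions with 1 start and 35.95% of the table.

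The rule did not use direction along the gene, and position is measured here at the 1452 sites with 1 start. The rule did limit the length of NELFE 1 and SPT5 regions. A midpoint is the mean of both edges, so the limit bears on midpoints too. The start itself lay inside the region in 97.6% to 99.0% of sites, depending on the library. Median midpoints lay downstream of the start in every library, by 71 and 78 bp with NELFB:HA, 62 and 64 bp with NELFE and 104.25 and 94 bp with SPT5. The SPT5 libraries thus stood farther downstream than all 4 NELF libraries, with no overlap between the groups.

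As means of library medians, midpoints were 74.5 ± 4.95 bp with NELFB:HA, 63 ± 1.41 bp with NELFE and 99.1 ± 7.25 bp with SPT5 (SD, n = 2 each). NELFE minus SPT5 was −36.1 bp, larger than the pooled SD of 5.22 bp, and NELFB:HA minus SPT5 was −24.6 bp, against a pooled SD of 6.21 bp. NELFB:HA minus NELFE was 11.5 bp, with a pooled SD of 3.64 bp. Each of the 3 differences had a two-sided p of 0.333 by exact permutation of the libraries, and an adjusted p of 0.333. With 2 libraries on each side 0.333 is the lowest p this test can give. With a length limit of 2000 bp in the rule, NELFB:HA minus SPT5 shrank to −3.62 bp and NELFE minus SPT5 to −28.1 bp. With 4000 bp they grew to −37.75 and −47.1 bp, so the size of these differences moved with the limit. Site by site, with the mean of each antibody's libraries, the SPT5 midpoint lay downstream of the NELFE midpoint at 814 of the 1452 sites (56.1%), with a median difference of 58.4 bp, and downstream of the NELFB:HA midpoint at 781 (53.8%), with a median of 46.75 bp. For NELFB:HA minus NELFE the site-by-site median was −1.62 bp, opposite in sign to the difference of medians, so no direction holds for that pair.

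These shifts are small beside the scatter at single sites. Midpoints of the same site lay a median of 481.25 bp apart between the NELFB:HA libraries, 334.75 bp between the NELFE libraries and 312 bp between the SPT5 libraries. Between libraries of different antibodies the median distance was 297.5 to 466 bp. At Hif1an the midpoint lay at −427.5 and −299.5 bp with NELFB:HA, at 163.5 and −17.5 bp with NELFE and at −30 and 80.5 bp with SPT5. At Tubgcp5 it lay at 20.5 and 21.5 bp with NELFE and at 588.5 and 622.5 bp with SPT5, and at Mbtps1 SPT5 lay upstream, at −410.5 and −5 bp.

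**Figure D3:**
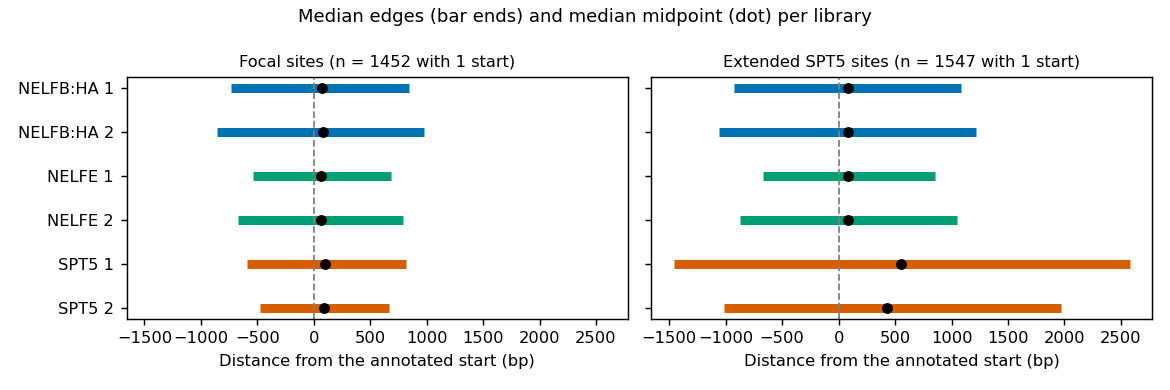
Median upstream and downstream edges (bar ends) and midpoints (dots) of the regions relative to the annotated start, in bp, for each library at focal sites (left, n = 1452) and extended SPT5 sites (right, n = 1547). At focal sites the dots lie 62 to 104.25 bp downstream in all libraries, and at extended sites the SPT5 dots lie at 552.5 and 431 bp.

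The edges showed how the regions lie over the start. Median upstream edges were −733.5 and −853.5 bp with NELFB:HA, −535 and −670.5 bp with NELFE and −592.5 and −475.5 bp with SPT5, and the downstream edges 843.5 and 973 bp, 683 and 788.5 bp, and 818 and 663 bp. The rule limits the length of NELFE 1 and SPT5 regions but not of the others, so the edges partly follow from it and are a description without a test. NELFB:HA minus NELFE was −191 bp at the upstream edge (pooled SD 90.5 bp) and 172.5 bp at the downstream edge (83.5 bp), and NELFB:HA minus SPT5 was −259.5 bp (83.8 bp) and 168 bp (101 bp). NELFE minus SPT5 was −68.75 bp upstream, within its pooled SD of 89.5 bp, and −4.75 bp downstream, within 93.7 bp.

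At extended SPT5 sites the NELF midpoints lay at 85.5 and 79 bp with NELFB:HA and 85.5 and 85 bp with NELFE. In each of these 4 libraries that was farther downstream than at focal sites, though in NELFB:HA 2 it was 79 bp against 78 bp. Means were 85.2 ± 0.354 bp against 63 ± 1.41 bp with NELFE and 82.2 ± 4.60 bp against 74.5 ± 4.95 bp with NELFB:HA (SD, n = 2). These differences were not tested. There the SPT5 midpoints lay at 552.5 and 431 bp and the SPT5 downstream edges at 2578 and 1966 bp, on the gene side. The SPT5 upstream edges also lay farther out, at −1456 and −1017 bp. The rule asks for long SPT5 regions at these sites but not for their direction.

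Beyond the site itself the full lists, including weak regions, were used. SPT5 covered a larger part of the 5 kb downstream of focal regions than of the 5 kb upstream, at 32.0% against 23.6% in SPT5 1 and 14.9% against 9.14% in SPT5 2. For NELFE the coverage was 12.1% downstream and 12.1% upstream in the first library and 12.9% and 13.2% in the second, and for NELFB:HA 17.2% and 17.8%, and 24.7% and 24.9%. The surplus downstream was 8.36 and 5.80 percentage points in the SPT5 libraries and between −0.657 and −0.0518 in the 4 NELF libraries, so the groups did not overlap.

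NELFB:HA minus SPT5 in this surplus was −7.51 points (pooled SD 1.30) and NELFE minus SPT5 −7.30 points (1.29), each with an exact permutation p of 0.333 and an adjusted p of 0.5. NELFB:HA minus NELFE was −0.214 points (pooled SD 0.279, exact p of 0.667, adjusted 0.667). Counting only flank regions with a q-value of 0.01 or less, the differences from SPT5 shrank to −0.212 and −0.458 points, so the surplus lay almost wholly in weaker regions. With a length limit of 2000 bp in the rule the differences were −4.85 and −5.61 points, and with 4000 bp −7.47 and −8.13 points. The measure was chosen after the data were seen. At extended SPT5 sites the SPT5 surplus was 11.8 and 12.5 points. With both flanks pooled at the 2646 focal sites, coverage was 17.4% and 24.5% with NELFB:HA, 12.02% and 12.9% with NELFE and 27.4% and 11.98% with SPT5. The same lists covered 14.8% and 22.7%, 7.63% and 8.30%, and 21.1% and 6.05% of the genome. Relative to that, flank coverage was 1.18 and 1.08 times, 1.57 and 1.55 times, and 1.30 and 1.98 times. In this ratio NELFB:HA minus NELFE was −0.435 (pooled SD 0.0502, exact permutation p of 0.333, adjusted 0.5). That is opposite in sign to the difference in points given next, so no direction holds for this pair. The difference in flank coverage was 8.53 points between NELFB:HA and NELFE (pooled SD 3.54, exact p of 0.333, adjusted 1) and lay within the pooled SD for NELFB:HA minus SPT5 (1.28 against 8.48) and NELFE minus SPT5 (−7.26 against 7.72), both with an exact p of 1 and an adjusted p of 1.

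**Figure D4:**
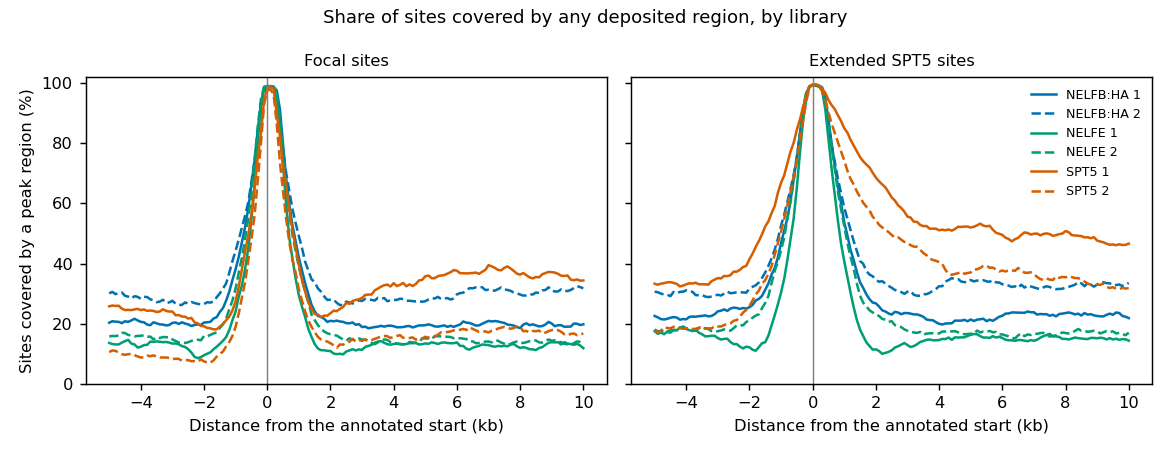
Share of sites (%) covered by any deposited region against distance from the annotated start in kb (negative is upstream), at focal sites (left) and extended SPT5 sites (right), 1 line per library. At focal sites the lines stand at 97.6% to 99.1% at the start, and 5000 bp downstream the SPT5 lines stand at 35.7% and 15.6%, against 25.8% and 10.5% at 5000 bp upstream.

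The profile of coverage by distance shows the same sides. At focal sites SPT5 coverage was 19.1% and 7.44% at 2000 bp upstream and 23.5% and 13.5% at 2000 bp downstream. It stood at 35.7% and 15.6% at 5000 bp downstream and at 34.4% and 16.7% at 10000 bp. At extended SPT5 sites it was 68.6% and 54.5% at 2000 bp downstream and 52.0% and 37.0% at 5000 bp. The rule limits the length of top SPT5 regions at focal sites, and how far that sets these values was not tested.

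The 18 gene lists describe which genes had focal sites. Over the promoter table, 2418 of 25605 genes (9.44%) had a start at a focal site and 11.5% had one at an extended SPT5 site. Genes were matched by symbol to that table, for example 4 of 6 NELF and DSIF genes and 13 of 23 pluripotency genes, and counts are over the matched ones. They are given beside these shares, without a test, and the lists were chosen with results of these data known.

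Genes of the transcription machinery lay at all 3 kinds of shared site. Of the NELF and DSIF genes, Nelfa and Supt4a, which encode a NELF subunit and the partner of SPT5, lay at focal sites, Nelfb at an extended SPT5 site and Supt5 at a broad NELFE site. Nelfa (chr5:33935640-33937022) had folds of 10.4 and 4.19 with NELFB:HA, 7.93 and 12.8 with NELFE and 5.61 and 4.67 with SPT5. Supt4a (chr11:87736998-87737993) was weaker, at 4.02 and 2.97, 4.09 and 4.43, and 2.34 and 2.36. Of 19 general transcription factor genes 7 were extended, 3 broad and 8 focal: Taf4, Taf13, Taf6, Gtf2f1, Gtf2b, Tbp, Gtf2h2 and Gtf2f2. Their sites had median folds of 8.48 and 6.67 with NELFE and 4.28 and 4.12 with SPT5, above the medians of all focal sites. Taf6, a histone-fold subunit of TFIID, had NELFE folds of 10.4 and 6.21. Of 17 genes of pause release and elongation 5 were extended, 6 broad and 5 focal, among the last Paf1 and Cdc73, subunits of the PAF complex, and Ell2, a subunit of the super elongation complex. Paf1 had NELFE folds of 6.60 and 8.62, Cdc73 7.68 and 6.84, and Ell2 5.31 and 5.99. The genes of the P-TEFb kinase were not among them: Cdk9 lay at an extended SPT5 site, and Ccnt1 and Ccnt2 at broad NELFE sites.

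The mitochondrial lists differed in which kind of site was the more frequent. Of 69 mitochondrial ribosomal protein genes 29 were focal (42.0%), 25 extended and 8 broad. Mrps18a, a protein of the small mitochondrial subunit, had SPT5 folds of 7.16 and 7.02, more than its 29-gene list's median of 3.46 and 3.13, over SPT5 regions of only 570 and 558 bp. Mrpl12 and Mrpl27, of the large subunit, had NELFE folds of 9.63 and 8.18 and of 7.04 and 8.52. Of 79 respiratory chain genes 22 were focal (27.8%), 33 extended (41.8%) and 9 broad. Cycs, which encodes cytochrome c, had NELFE folds of 14.0 and 10.4, Ndufv2, a complex I subunit, 8.93 and 8.56, and Ndufaf5, a complex I assembly factor, 5.62 and 10.8.

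Cytosolic ribosomal protein genes gave the opposite count. None of 53 was focal, 40 were extended and 13 broad. At the 40 extended sites the median NELFE region measured 2146 and 2756.5 bp and the median SPT5 region 10504 and 9145 bp, against 1664 and 1544 bp with SPT5 at the focal mitochondrial ribosomal genes. Median NELFE folds were 9.85 and 9.89 at the 40 and 6.10 and 6.08 at the 29. None of 18 translation factor genes was focal either, with 8 extended and 10 broad. Of 57 replication-dependent histone genes only H4c2 was focal, with 16 extended and 33 broad.

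In the lists of DNA repair and the proteasome extended genes outnumbered focal ones. Of 28 repair genes 14 were extended (50%), 2 broad and 8 focal (28.6%): Pms2, Lig3, Fanca, Ogg1, Xrcc6, Ercc1, Ercc2 and Xrcc3. Pms2, a mismatch repair protein, had NELFE folds of 8.40 and 7.68, Lig3, a DNA ligase, 4.02 and 9.18, and Fanca, a subunit of the Fanconi anaemia core complex, 4.63 and 3.39. Of 31 proteasome genes 8 were focal (25.8%), 12 extended (38.7%) and 6 broad. Psma4, of the core particle, had NELFE folds of 8.68 and 9.32, and Psmd8 and Psmd4, of the regulatory particle, 9.34 and 6.41, and 6.51 and 7.37. Of 303 genes named Zfp, most of which encode zinc finger proteins, 52 were focal (17.2%), 53 extended (17.5%) and 27 broad, the focal ones led by Zfp688, Zfp959 and Zfp1. Their median folds of 4.91 and 5.05 with NELFE lay below those of all focal sites.

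In 3 further lists focal shares lay nearer to the 9.44% of all genes. Of 25 DNA replication genes 3 were focal (12%), and these were Orc2 and Orc4, of the origin recognition complex, and Cdc6, which loads the helicase, while 12 others were extended, Mcm7 and Pcna among them. Of 29 splicing genes 3 were focal (10.3%), Sf3b2, Sf3a1 and Prpf8, with 15 extended and 10 broad. Of 18 heat shock and chaperone genes 3 were focal (16.7%), Dnajb1, Bag3 and Hsph1, and 10 were extended. Dnajb1, a co-chaperone, had NELFE folds of 7.53 and 8.94, Bag3 4.26 and 5.12, and Hsph1 3.68 and 4.68. The paralogues Hspa1a and Hspa1b lay at unshared regions.

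Immediate-early genes are induced within minutes of a stimulus. Of 19, 2 were focal (10.5%), Gadd45b and Ier5, 6 were extended and 10 broad, Fos, Jun and Junb among the last. Gadd45b (chr10:80927889-80930529), a stress-induced gene, had NELFE folds of 8.11 and 7.08 and SPT5 folds of 3.84 and 4.72, and its first SPT5 region of 2954 bp lay near the limit. Ier5 (chr1:155099063-155099944) had NELFE folds of 8.38 and 7.33, and its first SPT5 region measured 2962 bp. Of 16 small nucleolar RNA host genes only Snhg10 was focal. None of 13 pluripotency genes was focal, with 10 broad, among them Pou5f1, Sox2, Klf4 and Fgf4, and 1 extended, Lin28a. None of 17 lineage regulators of other cell types was at a shared site.

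**Figure D5:**
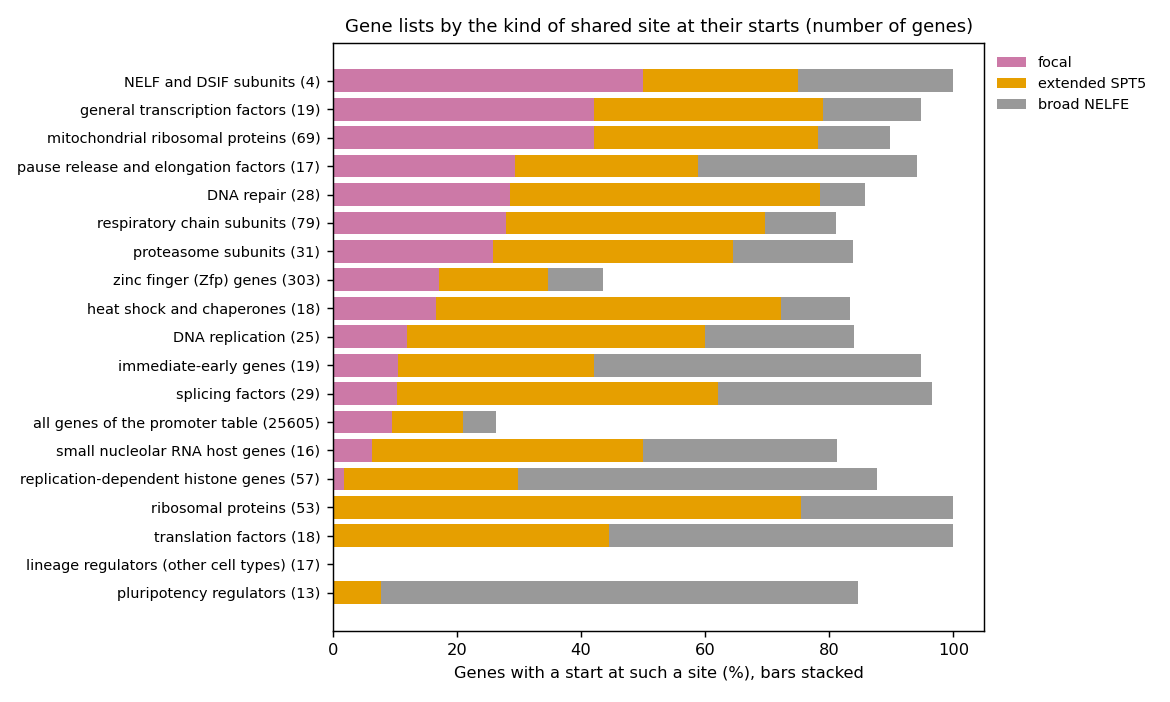
Share of the genes of each list (number of genes in brackets) with a start at a focal, an extended SPT5 or a broad NELFE site, stacked in %; a gene with starts at several kinds of site counts in each. Focal shares run from 0 for ribosomal proteins to 42.0% for mitochondrial ribosomal proteins, 42.1% for general transcription factors and 50% for the 4 NELF and DSIF genes, with 9.44% over all genes of the table.

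Focal sites were scattered along the chromosomes. Together they covered 4.14 Mb, and the median gap between neighbours was 275.3 kb. Of 2627 neighbouring pairs 40 lay less than 5 kb apart.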

How the data were processed

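The authors called regions with MACS 2.1.1.20160309 in broad mode, 1 library at a time against an input, with p-value cutoffs of 0.01 and 0.1 and at most 1 tag kept per position, per the file headers. Tags were extended to 227 bp (NELFB:HA, NELFE) or 206 bp (SPT5). Bowtie2, MACS2, deepTools and the build mm10 come from the submitters' processing notes. The deposited pileup is a coverage signal and is not comparable between depths. The deposited fold is a ratio to local input, and −log10 p and −log10 q are the authors' values per region. The headers say that q was not calculated, yet the column holds values, used as deposited. Regions tied at the lowest pileup of the top 10000 were taken in file order. Coordinates are counted from 1.

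Here, overlaps, positions and counts were computed with pandas 2.3.3 and scipy 1.17.1 and tested on simulated regions. The site members and gene lists were chosen with earlier results of these data known. Starts and sequences come from RefSeq GRCm38.p6, whose promoter table is incomplete and lacks chromosome 18. Starts were looked for within 500 bp, and names within 1000 bp for single sites. Named were the 8 strongest sites, those nearest the length limit, the shortest and longest, and up to 3 genes per list by fold percentile. Other genes of short lists were named after their class was seen. Antibodies were compared with two-sided exact permutation tests over library values, Benjamini-Hochberg adjusted over 3 pairs. The test planned for region edges is not reported, since the rule limits lengths. Libraries carry the replicate numbers of their titles, and the file headers number those of NELFB:HA and NELFE differently. Midpoint differences between replicates at single sites were not correlated between antibodies (0.0237, −0.00231 and 0.0143). This cannot exclude a shared effect on library medians. For NELFB:HA minus NELFE the SD over equal-numbered pairs was 11.0 and 17.0 bp at the upstream and downstream edges, below the pooled SDs of 90.5 and 83.5 bp. For both differences from SPT5 it was above the pooled SD at both edges. Whether equal numbers mark paired libraries is therefore not settled.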

Additional observations from a re-analysis of the deposited data

How the results depend on the processing

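The number of focal sites depends on its limits. It was 884 with 5000 regions per list, 1030 with a length limit of 2000 bp, 3980 with 4000 bp and 1667 when each overlap had to span at least 50% of the NELFE 1 region. With NELFE 2 in place of NELFE 1 as the starting list it was 2538. Leaving out 1 library gave 2586 to 4191, the highest without SPT5 1. The share of sites at a start was 82.0% with 5000 regions (77.2% to 78.5% leaving out a library), and the CpG-rich share 77.6% with 5000 regions and 70.8% with 2000 bp (73.1% to 73.9%).

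The SPT5 midpoint lay downstream of both NELF antibodies under every alternative run, with NELFB:HA minus SPT5 as small as −3.62 bp at a limit of 2000 bp. Leaving out a library, NELFE minus SPT5 ranged from −44.75 to −26.5 bp, NELFB:HA minus SPT5 from −33.25 to −20.75 bp and NELFB:HA minus NELFE from 5.75 to 13 bp. The last reversed to −1.25 bp with 5000 regions, −2.5 bp with regions of a q-value of 0.01 or less and −9.5 bp when ranked by fold. At the upstream edge NELFE minus SPT5 reversed to 1.25 bp with 4000 bp and 28 bp with the stricter overlap (−94 to −2.5 bp leaving out a library). At the downstream edge it reversed to 70.75 bp with 2000 bp, and ranged from −106 to 50 bp leaving out a library, the highest without SPT5 1. The other upstream edge differences ranged from −257 to −127 bp (NELFB:HA minus NELFE) and −318 to −197.5 bp (minus SPT5), the downstream ones from 99.75 to 237.5 bp and 81.5 to 234.5 bp.

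In the surplus of downstream flank coverage both NELF antibodies stayed below SPT5 under every alternative run, by −9.05 to −6.62 points for NELFB:HA and −9.00 to −6.90 for NELFE leaving out a library, and by −0.212 and −0.458 when only flank regions passing a q-value of 0.01 were counted. NELFB:HA minus NELFE reversed to 0.740 (5000 regions), 0.108 (q-value), 0.765 (2000 bp), 0.662 (4000 bp), 0.294 (flank of 2 kb) and 0.247 (flank regions by q-value), and ranged from −0.287 to 0.806 leaving out a library, above 0 without NELFB:HA 1, NELFE 1 or SPT5 1. Total flank coverage was less stable. With flank regions of a q-value of 0.01 or less it reversed to −0.214 points for NELFB:HA minus NELFE, −0.0846 for NELFB:HA minus SPT5 and 0.129 for NELFE minus SPT5. NELFB:HA minus SPT5 also reversed to −0.629 with 5000 regions and −0.833 with a flank of 2 kb. Leaving out a library these ranged from 4.71 to 11.6 (lowest without NELFB:HA 2), −7.34 to 7.57 (−2.03 without NELFB:HA 2 and −7.34 without SPT5 2) and −15.8 to −1.06 points (nearest to 0 without SPT5 1). The cause of these reversals was not tested.

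With the replicate number as a block, differences keep their value, and the SD taken over pairs of equal number was 3.54, 12.2 and 8.66 bp for the midpoints of NELFB:HA minus NELFE, NELFB:HA minus SPT5 and NELFE minus SPT5. It was 11.0, 168 and 179 bp at the upstream edge, 17.0, 201 and 184 bp at the downstream edge, 4.39, 15.9 and 11.5 points for flank coverage and 0.552, 2.13 and 1.58 points for its downstream surplus. Leaving these aside, 300 of 335 alternative values were labelled the same, 11 moved and 24 reversed. Differences were labelled by sign alone, so NELFB:HA minus SPT5 at −3.62 bp against −24.6 bp counts as the same. Counts had a wide margin, so 1966 focal sites, with regions chosen by a q-value of 0.01 or less, count as the same as 2646. Shares and lengths had to stay within their interval or SD. Joining SPT5 regions across gaps, the downstream surplus and leaving out sites of low fold were chosen after seeing the data. With 2 libraries per antibody the exact permutation test cannot pass a threshold of 0.05, and the differences that involve SPT5 carry its tag length and input as well.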
